A study of Homo sapiens with 4 samples.

Results

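Telomerase and shelterin genes were followed in H1299 cells treated with methylparaben. The set was given as a list of gene symbols: TERT, DKC1, WRAP53 and TEP1 for telomerase and its associated proteins, and TERF1, TERF2, TERF2IP, TINF2, POT1 and ACD for shelterin. These 10 genes have 114 of the 206601 annotated transcripts in the deposited tables, which cover 58735 genes. H1299 is an established line from a human lung carcinoma of the non-small-cell type. Its cells received methylparaben at 0.5 mM for 48 h (2 libraries), an ester of hydroxybenzoic acid that serves as a preservative, or ethanol (2 libraries, with no dose or time in the labels). The comparison asks which transcripts differ between treated and ethanol control cells of this 1 line. Whether replicate libraries stand for separate cultures is not in the labels. The p-values therefore reflect the spread between these samples alone, and that spread may be technical.

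Telomeres are the repeated DNA ends of chromosomes, which shorten as cells divide. Telomerase, a reverse transcriptase (TERT) with its own RNA template (TERC), adds repeats, and many carcinoma lines, H1299 among them, keep it active. Shelterin is the protein complex that coats the repeats, hides the ends from DNA damage signalling and controls the access of telomerase.

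RNA was read as counts per annotated transcript, 2068486 to 3760982 in all per library, and a count appeared only where a base belongs to 1 annotated transcript (a single-transcript base). The 70749 transcripts that lack such a base had 0 reads in all. Of the marker genes set for a check of the label, none of 4 lung epithelial and none of 5 blood and immune markers had a count, EPCAM and CDH1 were also at 0, and KRT8 and KRT18 (19 to 58 counts together per library) were read. Of 3 mesenchymal markers VIM had 62 to 207 counts, FN1 5 to 10 and CDH2 0 to 1, and their summed level was 91.0 and 72.3 CPM with ethanol and 38.4 and 35.1 CPM with methylparaben; the part of this in the results was not tested. Endothelial markers had 0 to 2 counts together per library and fibroblast markers 0 to 6.

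TERF2IP and DKC1 were higher with methylparaben, and the protein-coding transcript TERF1-201 was lower. TERF2IP, which encodes the shelterin protein RAP1, rose 1.67-fold. Its transcript TERF2IP-202, which ends in distant exons, went from 1 count in the ethanol libraries to 64 in the methylparaben libraries. DKC1, which encodes dyskerin of the telomerase particle, rose 5.67-fold, but none of its counts lay on a protein-coding transcript. TERF1-201, which encodes the repeat-binding protein TRF1 and was read on noncoding bases of its last exon, fell 2.12-fold. Other coding transcripts of TERF1 could scarcely be read. The intron-containing TERF1-206 rose relative to its gene as a whole, in a test added after the values were seen. By its own level TERF1-206 was not called. TERT, TINF2 and ACD had no count in any library, and their protein-coding transcripts offered at most 5 single-transcript bases each.

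The sequences below are shown because they mark the unusual parts of DKC1-208 and TERF2IP-202, the intron kept in the first and the distant exon of the second, and each covers only some of the bases that were counted. The first runs from exon into unspliced intron in DKC1-208, a transcript annotated as a retained intron (chrX:154764907-154765086, GRCh38, plus strand). Its 60 exonic bases are in lower case and the first 120 of 389 single-transcript bases, in intron 2 of the longest coding transcript DKC1-213, are in capitals.
DKC1-208: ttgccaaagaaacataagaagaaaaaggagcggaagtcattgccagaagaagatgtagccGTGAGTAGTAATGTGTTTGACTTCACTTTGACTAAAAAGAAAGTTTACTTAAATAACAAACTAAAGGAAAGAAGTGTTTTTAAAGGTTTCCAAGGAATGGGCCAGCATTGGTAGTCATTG
The second joins the end of the first exon of TERF2IP-202 (chr16:75656312-75656341, 30 bases in lower case) to its own 91-base coding exon in capitals (chr16:75760050-75760140), across an intron of 103708 bases.
TERF2IP-202: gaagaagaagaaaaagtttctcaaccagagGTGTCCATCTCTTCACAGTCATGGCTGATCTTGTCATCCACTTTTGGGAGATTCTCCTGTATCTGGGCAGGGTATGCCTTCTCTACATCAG
Both come from the GENCODE release 29 transcript sequences.

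Promoter windows of RefSeq (GRCh38.p14, 300 bases around each start) were found for 8 of the 10 genes, not for TERF1 and TERF2. For TERF2IP and DKC1, the genes that rose, the stretch without an annotated exon is printed, with motif matches in capitals.
TERF2IP (chr16:75647680-75647785, plus strand): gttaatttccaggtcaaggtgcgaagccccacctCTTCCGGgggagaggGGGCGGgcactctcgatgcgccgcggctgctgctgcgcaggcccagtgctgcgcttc
DKC1 (chrX:154762614-154762741, plus strand): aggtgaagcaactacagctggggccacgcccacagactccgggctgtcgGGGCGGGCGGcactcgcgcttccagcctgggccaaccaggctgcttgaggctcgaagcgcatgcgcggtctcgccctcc
The TERF2IP stretch holds an ETS site (CCGGAAG, read on the minus strand) and a GC box (GGGCGG), and the DKC1 stretch holds 2 overlapping GC boxes. Motifs were searched on both strands. The ETS letters occur in 10.3% and the GC box in 45.0% of all 35116 windows. Neither was particular to these genes. The GC box also matched in the windows of TERT, TINF2, POT1, ACD and TEP1 and in 1 of 3 windows of WRAP53. The ETS letters also matched in both TINF2 windows. A CRE (TGACGTCA) was matched in the window of POT1 (1.85% of all windows), an E-box (CACGTG) in that of TERT (7.26%) and the telomere repeat unit TTAGGG in 1 of 3 windows of WRAP53 (9.05%). The core TGATGCAA, bound by ATF4, matched none of the members' windows (0.866% of all windows). The CCAAT letters (34.6% of all windows) matched in both TINF2 windows and 1 WRAP53 window. These matches describe letters, not bound sites.

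How much of each gene could be counted differed widely. TERF1 had 6128 single-transcript bases, TERF2 3269, TERF2IP 2779, WRAP53 1639, POT1 1389, TEP1 1160, DKC1 988, TERT 584, ACD 579 and TINF2 487. On protein-coding transcripts alone, TERF2 had 3192, TERF2IP 2740, TERF1 1222, WRAP53 1005, TEP1 569, POT1 557, DKC1 15, ACD 5, and TERT and TINF2 0. So 4 of the 10 genes had 20 or fewer countable bases on coding transcripts, against 9.32% of 19951 protein-coding genes. For these 4 genes the counts are a measure of intron-containing or noncoding forms and not of the coding mRNA.

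**Figure D1:**
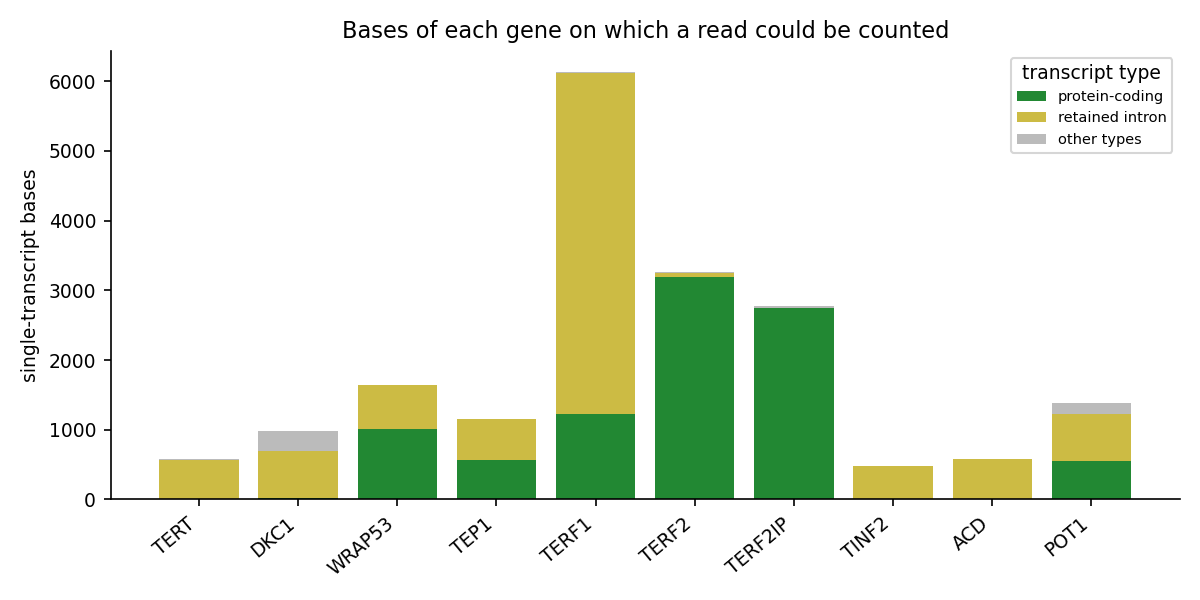
Single-transcript bases of each gene (bar height, in bases), split by the annotated type of the transcript that holds them. TERT, TINF2 and ACD have almost only retained-intron bases, whereas TERF2 and TERF2IP have mostly protein-coding ones.

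Counts were found for 7 of the 10 genes and for 20 of 47 member transcripts with a single-transcript base. Only TERF2IP, TERF1, TERF2 and DKC1 passed the filter on low counts and were tested. By edgeR's quasi-likelihood test with Benjamini-Hochberg adjustment over 8055 genes, 2 of these 4 were called higher and 0 lower at an adjusted p under 0.05. Over all genes tested 36.9% were called, 18.5% higher and 18.4% lower. Without ethanol replicate 1, when 18.6% of all 9003 tested genes were called, 0 of 5 tested members were, the adjusted p being 0.101 for TERF2IP and 0.0585 for DKC1. CPM are counts per 1000000 with TMM scaling (edgeR's trimmed mean method), ± after a CPM is the SD with n = 2 per group, and ± after a log2 fold change is its SE.

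**Figure D2:**
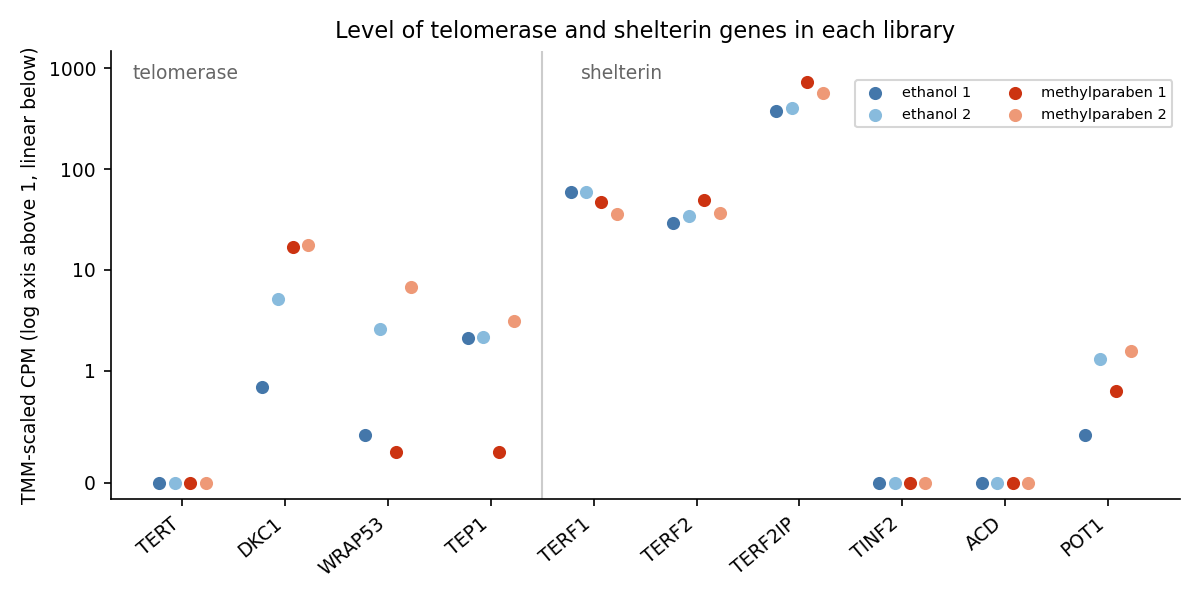
TMM-scaled CPM of each gene (vertical axis, logarithmic above 1 and linear below) in the 4 libraries, with telomerase genes on the left and shelterin genes on the right. TERF2IP is the highest in every library, and TERT, TINF2 and ACD lie at 0.

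TERT, the catalytic subunit (chromosome 5, 1253147 to 1295069, minus strand, GRCh38), had 0 counts in all 4 libraries. A count of 0 allows up to 1.28, 1.30, 0.816 and 1.57 TMM-scaled CPM in ethanol 1, ethanol 2, methylparaben 1 and methylparaben 2, taking 3 counts as the limit, which covers counting error only. That limit applies to the 562 bases of 2 retained-intron transcripts and 22 bases of a noncoding processed transcript that could be read. TERC, the template RNA, also had 0 counts in each library. These counts therefore hold no measurement of coding TERT mRNA.

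DKC1 (chromosome X, 154762742 to 154777689, plus strand) encodes the pseudouridine synthase that binds the H/ACA end of the telomerase RNA and of small nucleolar RNAs. Its counts were 2 and 12 with ethanol and 62 and 34 with methylparaben, or 0.851 and 5.19 against 16.9 and 17.8 CPM. Both methylparaben libraries lay above both ethanol libraries, and the ethanol libraries differed more from each other than the methylparaben libraries did. The log2 fold change was 2.50 ± 0.63 with an adjusted p of 0.0122 (edgeR), and it was 1.71 without ethanol replicate 1 and 4.28 without ethanol replicate 2. DKC1 passed the low-count filter only through the methylparaben libraries. Of 969 genes that passed in this way 48.0% were called, against 35.4% of the 5767 that passed in both groups.

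The DKC1 counts came from 4 noncoding transcripts. The 389 intronic bases of DKC1-208, whose first 120 are printed above, held 0 and 7 counts in ethanol and 57 and 30 in methylparaben, which was 94 of the 110 counts of the gene. At the transcript level the log2 fold change of DKC1-208 was 3.31 ± 0.81, with an adjusted p of 0.00957 by edgeR over 9167 transcripts and of 0.231 by DESeq2. The log2 fold change of DKC1-208 was 2.28 without ethanol replicate 1 and 8.37 without ethanol replicate 2. The second of these rests on a control library with 0 counts and is no bound. The authors' deposited table gives this transcript an adjusted p of 2.45e-05. DKC1-211, with an intron 7 stretch, had 0 and 4 counts with ethanol and 4 and 0 with methylparaben, and DKC1-207, with an intron 5 stretch, had 2, 1, 1 and 3. These introns showed no separation of the groups. Retained-intron transcripts held 11 of 14 DKC1 counts in ethanol and 92 of 96 in methylparaben. Of the 988 countable DKC1 bases, 675 lie on such transcripts and 15 on protein-coding ones. The DKC1 share was thus largely set by the annotation and cannot be compared with that of other genes. In all protein-coding genes together such transcripts held 3.52% and 3.42% of counts with ethanol and 5.996% and 5.93% with methylparaben, and the part of this general difference in the DKC1 result was not tested.

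WRAP53 (chromosome 17, 7686071 to 7703502, plus strand) encodes TCAB1, which carries telomerase to Cajal bodies. Its counts were 1 and 6 in ethanol and 1 and 13 in methylparaben. The groups overlapped, and replicate 2 was the higher one in each group. The ratio of methylparaben over ethanol was 1.67 (exact binomial 95% interval 0.630 to 4.89, counting error only). All 21 counts lay on 1005 bases of the first exon of WRAP53-201, between 7686372 and 7687376. The strand setting of the counting is unknown here, so reads of either strand at these bases cannot be told apart.

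TEP1 (chromosome 14, 20365667 to 20413429, minus strand) encodes a large protein found with telomerase and in vault particles. It had 5 and 5 counts in ethanol and 1 and 6 in methylparaben, a ratio of 0.584 with an exact binomial 95% interval of 0.189 to 1.70. The groups overlapped. All but 1 of its 17 counts lay on 527 noncoding bases in the last exon of TEP1-201, so a difference was not detectable at this depth.

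TERF2IP (chromosome 16, 75647786 to 75761872, plus strand) encodes RAP1, which joins shelterin by binding TRF2. It was the most abundant member, with 888 and 928 counts in ethanol and 2695 and 1090 in methylparaben. These were 378 and 402 against 733 and 570.4 CPM, a rise from 390 ± 17.0 to 652 ± 115 CPM. Both methylparaben libraries lay above both ethanol libraries, methylparaben replicate 1 being the higher one. The log2 fold change was 0.74 ± 0.18, with an adjusted p of 0.00986 (edgeR). With limma on log2(FPKM + pseudocount), where FPKM are the authors' length-scaled values, the adjusted p was 0.0509 at a pseudocount of 1 and 0.0590 at 0.1.

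TERF2IP-201, with 610 countable bases in exon 1 and 999 in exon 3, carried 5535 of the 5601 TERF2IP counts. Its level was 384 and 410 CPM in ethanol and 721 and 560.3 CPM in methylparaben. The log2 fold change was 0.69 ± 0.18, with an adjusted p of 0.0122 by edgeR that became 0.135 without ethanol replicate 1, 0.0776 without ethanol replicate 2 and 0.0592 without methylparaben replicate 1. The authors' deposited table gives it an adjusted p of 2.50e-08.

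TERF2IP-202 starts in the last exon of TERF2IP-201 and ends in 2 exons more than 100 kb downstream, one of them printed above. It had 1 and 0 counts in ethanol and 34 and 30 in methylparaben, or 0.433 and 0 against 9.22 and 15.9 CPM. All but 1 of the 65 counts were thus in the treated cells, and it passed the low-count filter only through them. The ratio of methylparaben over ethanol was 52.4, with an exact binomial 95% interval of 9.08 to 2104 (counting error only). The adjusted p was 0.00158 by edgeR. The 13 other settings run at the transcript level reuse the same libraries, so they are no separate support. The log2 fold change was 5.52 ± 0.92, and 4.68 to 8.004 over those settings. The value of 8.004, without ethanol replicate 1, rests on a control library with 0 counts and is no bound. Of 7 tested member transcripts 3 were called higher and 1 lower, while 39.4% of all 9167 tested transcripts were called, 20.3% higher and 19.1% lower. Of the 3 called higher, TERF2IP-202 and DKC1-208 passed the low-count filter only through the methylparaben libraries. The share called among all transcripts that passed in this way was not computed. Relative to its gene TERF2IP-202 was at 4.80 on the log2 scale (edgeR's test of relative use, adjusted p = 0.000331). The distal counts are few beside the gene as a whole: on the scale of CPM per kb of single-transcript bases, TERF2IP-202 stood at 11.1 and TERF2IP-201 at 398 in the methylparaben group.

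**Figure D3:**
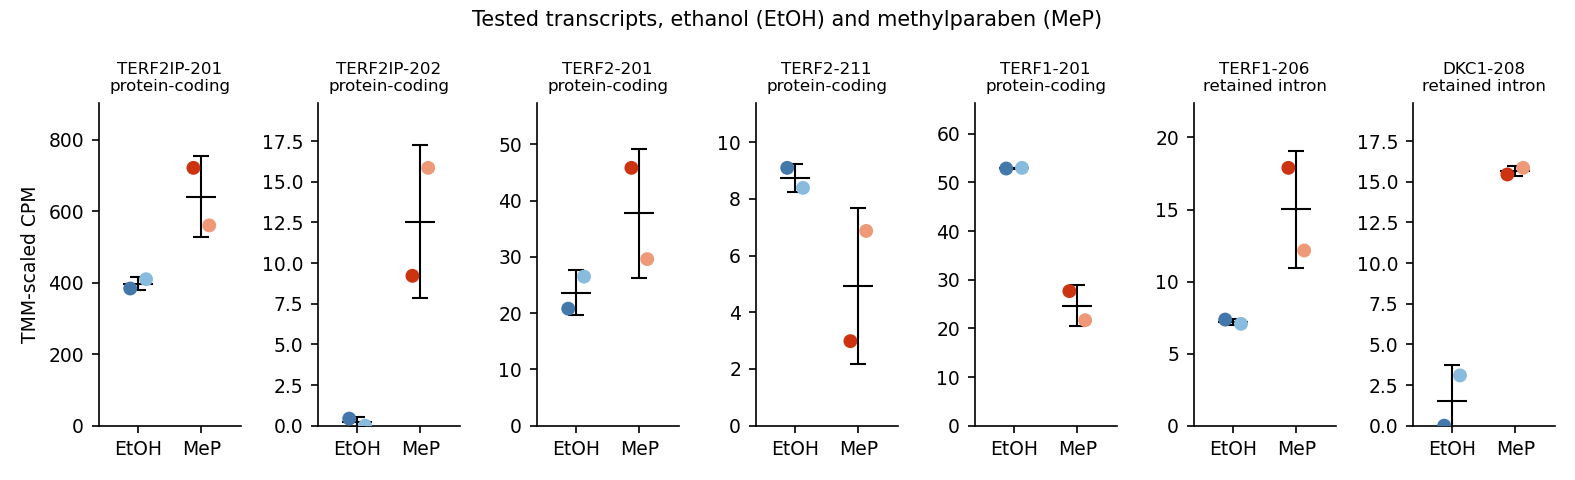
TMM-scaled CPM of the 7 tested transcripts, 1 panel each with its own axis from 0. Points are libraries and black marks the mean and SD of 2. TERF2IP-201, TERF2IP-202 and DKC1-208 were called higher and TERF1-201 lower in methylparaben, and TERF1-206, TERF2-201 and TERF2-211 were not called.

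TERF1 (chromosome 8, 73008864 to 73048122, plus strand) encodes TRF1, which binds the double-stranded repeat. The whole gene had 139 and 136 counts in ethanol and 173 and 68 in methylparaben, or 59.1 and 58.9 against 47.1 and 35.6 CPM. Its log2 fold change of -0.50 ± 0.25 was not called (edgeR adjusted p = 0.148). The sum joins transcripts with fold changes of opposite sign. The protein-coding TERF1-201, read on 1147 noncoding bases at the end of its last exon, stood at 52.8 and 53.0 CPM in ethanol and 27.6 and 21.7 CPM in methylparaben. It fell by 1.09 on the log2 scale (SE 0.28, edgeR adjusted p = 0.0118). That adjusted p became 0.0562 without ethanol replicate 1 and 0.0593 without ethanol replicate 2. As in any bulk sample, fewer expressing cells and less RNA per cell cannot be told apart. TERF1-202 and TERF1-205, also protein-coding, have 0 single-transcript bases. A fall of TRF1 mRNA as a whole and a fall of only the form with this last-exon end cannot be told apart. Without retained-intron transcripts TERF1 was at -0.97 with an adjusted p of 0.0228, where 35% of 7195 genes were called, 17.1% higher and 17.9% lower. Summed over protein-coding transcripts only, TERF1 was at -0.92 with an edgeR adjusted p of 0.0185. In that setting 41.6% of 4487 genes were called, 19.3% higher and 22.4% lower. Both TERF1 sums hold the TERF1-201 counts and 1 count of TERF1-203. They repeat the TERF1-201 result on the same reads and are no separate support.

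TERF1-206, annotated as a retained intron and read on 1600 bases of intron 6, stood at 7.36 and 7.06 CPM in ethanol and 17.9 and 12.2 CPM in methylparaben. Its log2 fold change was 1.07 ± 0.44, with an adjusted p of 0.0784 by edgeR and of 0.361 by DESeq2. In the authors' deposited comparison TERF1-206 has an adjusted p of 0.417. Relative to the TERF1 gene as a whole it rose by 1.66 on the log2 scale (edgeR's test of relative transcript use, adjusted p = 0.0108 over 2830 transcripts, of which 15.4% were called, 10.6% higher and 4.81% lower). This adjusted p was 0.151 without ethanol replicate 1, 0.1504 without ethanol replicate 2 and 0.178 without methylparaben replicate 1, with log2 values of 1.58 to 1.71 in all settings run. TERF1-204, with an intron 1 stretch, had 0 and 0 counts in ethanol and 5 and 3 in methylparaben.

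The retained-intron share of TERF1 counts was 12.2% (95% Wilson interval 7.78 to 18.7) and 11.8% (7.37 to 18.3) with ethanol, and 41.0% (34.0 to 48.5) and 38.2% (27.6 to 50.1) with methylparaben. The intervals of the groups do not overlap, and they cover counting error only. TERF2IP had 0 such counts in 5601, having no transcript of that type, and TERF2 had 1 in 398. The share follows the annotated type, so it leaves out TERF2-211, which is annotated as protein-coding but was read on intron 7. TERF2-211 had 40 counts with ethanol and 24 with methylparaben. The share over all protein-coding genes was higher too, as given above, and its part in the TERF1 share was not tested.

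**Figure D4:**
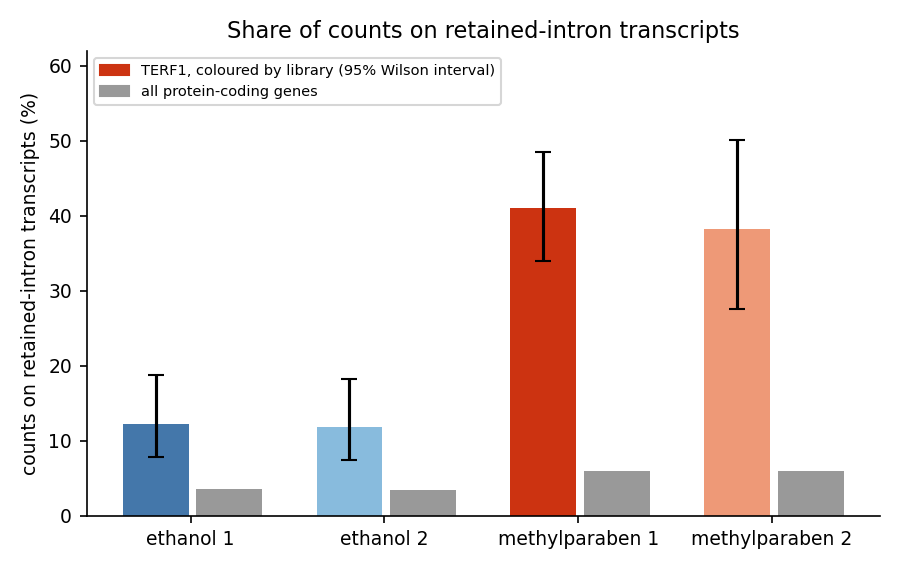
Percent of TERF1 counts on retained-intron transcripts in each library (coloured bars, 95% Wilson intervals) beside the same share over all protein-coding genes (grey bars). TERF1 is near 12% in both ethanol libraries and at 38.2% and 41.0% in the methylparaben libraries.

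TERF2 (chromosome 16, 69355561 to 69408571, minus strand) encodes TRF2, the relative of TRF1 that keeps chromosome ends from being joined. It had 69 and 79 counts in ethanol and 180 and 70 in methylparaben, or 29.3 and 34.2 against 49.0 and 36.6 CPM. The log2 fold change was 0.44 ± 0.28, not called by edgeR (adjusted p = 0.246) or in any of the 17 other settings run. Its longest coding transcript TERF2-201 was at 0.69 ± 0.33, with an adjusted p of 0.117 by edgeR and of 0.387 by DESeq2. In the authors' deposited comparison TERF2-201 has an adjusted p of 0.552. TERF2-211, read on 1840 bases of intron 7, was at -0.91 ± 0.57 with an edgeR adjusted p of 0.230. In TERF2-211 methylparaben replicate 1 had 2.98 CPM and replicate 2 6.87 CPM, so the treated libraries varied more than the ethanol ones at 9.10 and 8.39 CPM.

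Per length, TERF2IP-201 was the highest member and the order of the TRF1 and TRF2 transcripts differed between the ethanol and the methylparaben libraries. In CPM per kb of single-transcript bases, TERF2IP-201 had 239 and 255 in ethanol and 448 and 348 in methylparaben. TERF1-201 had 46.1 and 46.2, then 24.1 and 18.9, and TERF2-201 had 28.9 and 36.8, then 63.7 and 41.2. TERF1-201 was thus at 1.59 and 1.254 times TERF2-201 with ethanol and at 0.378 and 0.459 times with methylparaben. The log2 ratio differed by -1.76 between the groups, with an exact two-sided permutation p of 0.333, the smallest that 2 libraries against 2 allow. TEP1-201 and WRAP53-201, the coding transcripts read for these genes, stood at 4.15 and 1.53 per kb in the ethanol group, and their libraries overlapped across groups.

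The other shelterin genes could scarcely be read. TINF2, which encodes TIN2, the bridge between TRF1, TRF2 and TPP1, and ACD, which encodes TPP1, the subunit that brings telomerase to the end, had 0 counts in all libraries, with the same limits in CPM as for TERT. TINF2 lies on chromosome 14 (24239643 to 24242674) and ACD on chromosome 16 (67657512 to 67660815), both on the minus strand. POT1 (chromosome 7, 124822386 to 124929983, minus strand), which binds the single-stranded overhang, had 1 and 3 counts in ethanol and 3 and 3 in methylparaben. Its ratio was 1.252 (exact binomial 95% interval 0.297 to 6.03), so no difference was detectable. The POT1 counts came from different introns: POT1-213 in intron 9 had 1 and 2 counts in ethanol and 0 in methylparaben, and POT1-209 in intron 12 had 0 in ethanol and 3 and 3 in methylparaben.

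The genes most like the 2 called members were sought among 5828 tested protein-coding genes, by the smallest Euclidean distance of centred log2 CPM over the 4 libraries. For TERF2IP they were PLAG1, a zinc finger transcription factor gene (distance 0.0495, 194 and 197 CPM in ethanol, 368 and 281 in methylparaben), and MEX3C, an RNA-binding ubiquitin ligase gene (0.0496). MEX3C was far lower, at 3.40 and 3.46 CPM in ethanol and 6.80 and 5.23 in methylparaben, and was not called (edgeR adjusted p = 0.273). For DKC1 they were ACTR1A, a dynactin subunit gene (0.193), and MAX, the partner of MYC (0.236, with 0.425 and 3.03 CPM in ethanol and 12.2 and 13.6 in methylparaben).

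Genes that work with telomerase or at telomeres were taken from 6 lists of 108 genes in all, of which 50 could be tested. Of these 10 were higher and 8 lower, or 36% against the 36.9% of all genes, with a median log2 fold change of 0.16 against 0.03 over all genes. Without ethanol replicate 1, 9 of 55 tested genes were called (16.4%, against 18.6% of all genes in that setting), and without ethanol replicate 2, 11 of 57 (19.3% against 22.4%).

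Among 17 genes for H/ACA particles and telomerase assembly, 5 were tested and 1 was higher, with a median log2 fold change of 0.69. HSP90AA1, a chaperone that assists assembly, rose by 3.40 ± 0.46 (edgeR adjusted p = 0.000630) and passed the filter only through the methylparaben libraries, with 8 and 5 counts in ethanol, 89 and 69 in methylparaben and 78.4% of them on retained-intron transcripts. NOP10 and NHP2, which form the particle with dyskerin and GAR1, had 1 and 0 counts in all. GAR1 had 11 and 7 counts in ethanol and 23 and 12 in methylparaben (edgeR adjusted p = 0.356). All GAR1 counts lay on retained-intron transcripts, and GAR1 passed the filter only through the methylparaben libraries. Among 10 genes that process telomerase RNA, 5 were tested and 1 was higher (median 0.82): PABPN1, the nuclear poly(A)-binding protein, went from 27.2 ± 0.642 to 69.9 ± 11.5 CPM (adjusted p = 0.00361).

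In the CST complex, which binds the telomeric overhang and brings DNA polymerase alpha, 2 of 7 genes were tested and 1 was lower. CTC1, its largest subunit, had 31 and 27 counts in ethanol and 10 and 9 in methylparaben and fell by 1.80 on the log2 scale (SE 0.52, edgeR adjusted p = 0.0220), having passed the filter only through the ethanol libraries. PRIM2, the other tested gene, was at 0.35 ± 0.25 (0.302). STN1 had 0, 2, 7 and 1 counts and TEN1 had 0.

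Of 21 genes for telomere end processing and replication, 8 were tested, 1 was higher and 3 were lower (median -0.36). The flap endonuclease FEN1 went from 93.7 ± 2.78 to 27.2 ± 0.751 CPM (edgeR adjusted p = 0.000569), and RAD50 from 20.8 ± 2.99 to 7.996 ± 0.534 CPM (edgeR adjusted p = 0.0193). MRE11, the nuclease that works with RAD50, went from 88.8 ± 1.10 to 54.7 ± 2.64 CPM (0.0295). NBN, the third protein of that complex, was the gene of the list that was higher, from 1 and 1 counts to 19 and 10, with 90.3% of its counts on retained-intron transcripts and all of MRE11's on protein-coding ones. NBN passed the filter only through the methylparaben libraries, whereas FEN1, RAD50 and MRE11 passed in both groups. WRN, a helicase gene, was at -0.23 ± 0.27 and was not called (0.528).

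Of 32 shelterin partners and telomere chromatin genes, 22 were tested, 6 were higher and 2 lower (median 0.16). RLIM, a ubiquitin ligase that acts on TRF1, went from 358 ± 9.30 to 928 ± 70.7 CPM (edgeR adjusted p = 0.000325), all on coding transcripts. TNKS, the poly(ADP-ribose) polymerase tankyrase 1 that modifies TRF1, went from 199.7 ± 27.4 to 347 ± 39.8 CPM (0.00770), whereas its relative TNKS2 was at 0.37 ± 0.16 and was not called (0.0937). CSNK2A1, a catalytic subunit gene of casein kinase 2, went from 20.6 ± 3.38 to 85.5 ± 3.49 CPM, with 68.9% of its counts on retained-intron transcripts. ATM, the kinase that TRF2 holds in check, went from 12.01 ± 0.457 to 48.4 ± 10.01 CPM (edgeR adjusted p = 0.00128). Of the ATM counts 37.8% lay on retained-intron transcripts and 59.0% on coding ones.

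Of 21 transcription factors named as regulators of TERT, 8 were tested, 1 was higher and 2 lower (median 0.09). MAX was at 2.87 ± 0.69 (edgeR adjusted p = 0.00986) and passed only through the methylparaben libraries, and SP3 went from 43.6 ± 5.70 to 21.4 ± 5.87 CPM (0.0287), while SP1 was at 0.18 ± 0.16 and was not called (0.397). ESR1, the estrogen receptor alpha gene, had 21, 16, 1 and 0 counts, all on coding transcripts, and was called lower (adjusted p = 0.00233), having passed only through the ethanol libraries. MYC had 0 counts in all libraries on 248 countable coding bases.

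**Figure D5:**
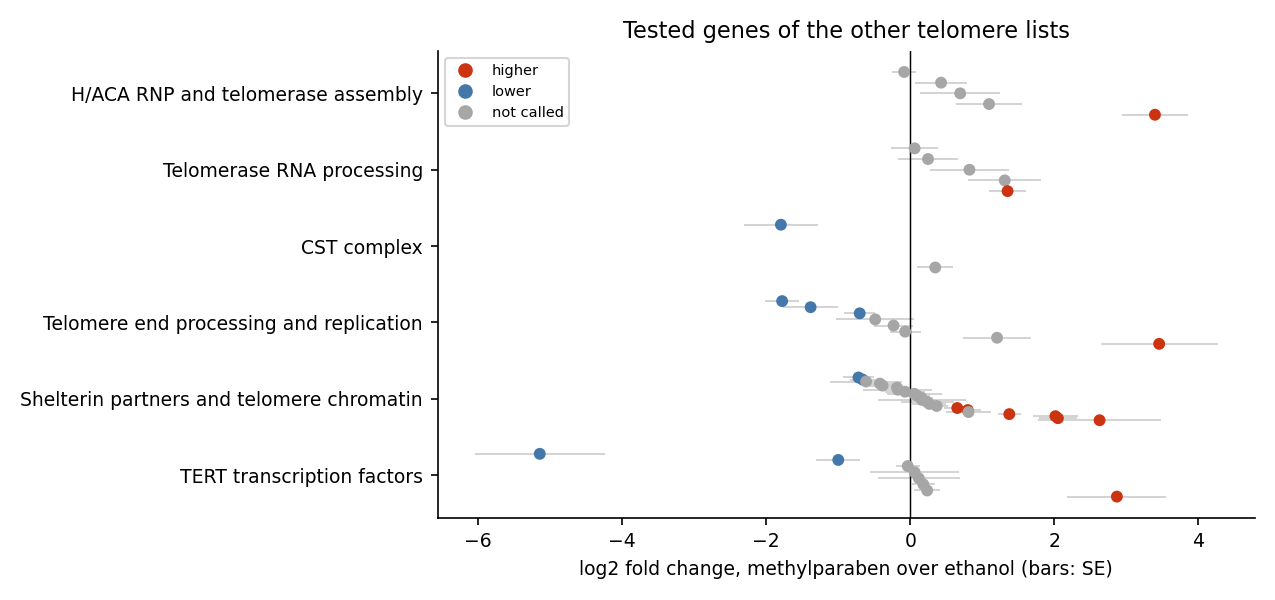
Log2 fold change (methylparaben over ethanol, horizontal axis, bars show the SE) of the 50 tested genes of the 6 telomere lists, coloured by the edgeR call at an adjusted p under 0.05. Called genes lie on both sides of 0, 10 to the right and 8 to the left.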

How the data were processed

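The deposited tables hold unnormalised counts for each annotated transcript, FPKM values and, per the file headers, log2 of FPKM plus 1, with a p-value and its adjusted form from the authors' comparison. The aligner and the counter: not given in the sources used here. The submitters' processing notes name GRCh38, DESeq2, limma and edgeR without roles. All 206601 transcripts matched GENCODE release 29 by coordinates, from whose exons single-transcript bases were derived without regard to strand. Counts were summed per gene, filtered with filterByExpr (minimum count 10, total 15), scaled by TMM and tested in edgeR 4.0.16 (R 4.3.3) by its quasi-likelihood method (glmQLFTest, two-sided). Adjustment over the 8055 genes or 9167 transcripts followed Benjamini-Hochberg, with a threshold of 0.05. Relative transcript use was tested with diffSpliceDGE, added after the values were seen. The fit was tested on simulated data. Alternatives used limma 3.58.1, DESeq2 1.42.0, other scalings, filters and transcript types, and each library left out. Genes named were all members, up to 4 called genes per list by smallest p, TERC and MYC, and the 2 genes most alike each called member; 1 further gene under this rule is not reported here. Other list genes named (NOP10, NHP2, GAR1, PRIM2, STN1, TEN1, WRN, TNKS2 and SP1) were chosen after their values were seen. Members and lists were chosen with earlier results of these data known.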

Additional observations from a re-analysis of the deposited data

How the results depend on the processing

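Over the alternatives run, the 2 calls among the 4 tested members were unchanged in number except without ethanol replicate 1 (0 calls), and with limma on log2(FPKM + 1) (1 call, DKC1) and log2(FPKM + 0.1) (0 calls); leaving out single libraries gave 0 to 2. Without retained-intron transcripts, or with protein-coding transcripts only, the 2 calls were TERF2IP, higher, and TERF1, lower. No tested member's fold change changed sign in these settings. Member transcripts called were 4 of 7 tested (57.1%, against 39.4% of all transcripts). In the test of relative use they were 2 of 6 (33.3%, against 15.4% of all transcripts in that test). Telomere list genes called were 18, and 9 to 19 with a library left out. Genes called over the whole table were 2976, with 1677 to 3095 when a library was left out, 1867 with protein-coding transcripts only (fewer genes tested) and 1899 with log2(FPKM + 0.1). Where no cause is given, the cause was not tested. Scaling by library size only moved the median of all genes by -0.11 on the log2 scale. The labels' replicate numbers say nothing of a shared culture or day. With the replicate number as a block, 2488 genes, 2 members, 18 list genes (11 higher and 7 lower, against 10 and 8) and 4 member transcripts were called, and no call of a tested member gene or transcript changed. Same-numbered libraries deviated from their group means with a correlation of -0.15 across genes, and with the crossed pairing as a block, chosen after seeing the data, 3292 genes were called. Depth limits WRAP53, TEP1 and POT1, with 21, 17 and 10 counts in all.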

Other observations

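MPP1, a membrane scaffold protein gene that ends next to DKC1 on the opposite strand of chromosome X, had 5 and 9 counts in ethanol and 43 and 23 in methylparaben, with a log2 fold change of 1.96 ± 0.53 (edgeR adjusted p = 0.0175), and passed the low-count filter only through the methylparaben libraries. KARS, the lysyl-tRNA synthetase gene, which overlaps the start of TERF2IP on the opposite strand, was too low to test at 2 and 3 counts in ethanol and 10 and 10 in methylparaben. The small nucleolar RNA genes SNORA36A and SNORA56 within DKC1 had 0 counts in all libraries. POT1-AS1, antisense to POT1, had 2, 2, 0 and 1 counts.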
